A study of Mus musculus with 6 samples.

Results

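The 10 genes described here encode TRAF adaptor proteins (Traf1, Traf2, Traf3, Traf5 and Traf6), the TRAF-binding protein TANK (Tank), and proteins that switch TRAF signalling off or are induced by it (Tnfaip3, Tnip1, Tnfaip2 and Cyld). They were taken by gene symbol, all 10 had 1 entry each among 23282 gene entries, and all 10 passed the filter on low counts, which left 11092 tested genes. RNA was measured in RAW 264.7, a mouse macrophage cell line that forms osteoclasts, the multinucleated cells that resorb bone. The 3 samples of the CPN group carry that word as their treatment, in a series named for a chaperonin of 60 kDa, and the other 3 samples are labelled control. All 6 are labelled day 5 of osteoclast differentiation. The labels give neither the source, dose or time of addition of the chaperonin nor the agent that drove differentiation. Whether the samples of a group were cultured separately is not stated either, so the p-values reflect the spread among these 6 libraries, part or all of which may be technical.

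TRAF proteins bind the inner tails of TNF family receptors such as RANK, the receptor that drives osteoclast formation. Most TRAF proteins carry a RING domain. Ubiquitin chains, attached by TRAF6 or by ligases that TRAF2 brings to the receptors, recruit the kinases of the NF-kB pathway. TRAF6 is the adaptor through which RANK and the Toll-like receptors activate NF-kB, and TRAF3 holds back the alternative NF-kB branch by promoting breakdown of the kinase NIK. A20, the product of Tnfaip3, and CYLD remove or edit such ubiquitin chains, and Tnip1 encodes ABIN1, which binds both ubiquitin chains and A20. Tnfaip2 encodes M-Sec, a protein of membrane protrusions whose gene is induced by TNF, and it is no A20 partner despite its similar name.

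Library totals lay between 7957228 and 9713938 counts. The libraries differed in how many low genes they missed. Among 707 genes with a mean of 6 to 12 counts, CPN 1 had 14.0% at 0 and control 3 had 23.76%, against 36.92% to 41.16% in the other 4. The labelled cell type was checked by markers: of 6 macrophage genes all were detected and tested, with 2 higher in CPN, and of 7 osteoclast genes 6 were lower and 1 was higher (edgeR). Levels are given in CPM, the counts of a gene relative to its library total after TMM scaling, which evens out differences in library composition. Summed over its list, the osteoclast genes lay between 952.4 and 1512 CPM in CPN and between 3267 and 3532 CPM in control, and the macrophage genes between 2171 and 2800 CPM in CPN and between 1871 and 2368 CPM in control. Fewer cells of a type and less RNA per cell cannot be told apart in such bulk samples. Of 6 granulocyte markers 1 could be tested, S100a8, and it was higher in CPN. The list summed to between 17.99 and 34.58 CPM in CPN and at most 0.117 CPM in control. Elane and Camp were at 0 in every library, S100a9 and Mpo had no more than 6 counts in any library, and Ly6g had no entry in the counts. Of 5 stromal markers, Dcn was the 1 tested, with 94, 59 and 98 counts in CPN 1 to 3 and 0 in every control library, and the list summed to between 12.12 and 12.18 CPM in CPN and to at most 6.23 CPM in control. The other 4, the collagen genes Col1a1, Col1a2 and Col3a1 and the receptor gene Pdgfra, were at 0 in at least 1 library of each group. Col1a1 had 7, 21 and 0 counts in CPN 1 to 3 and 0, 37 and 0 in control 1 to 3. Col3a1 had 13 counts in CPN 2, 13 in control 2 and 0 elsewhere. The lymphocyte list and the epithelial and endothelial list had no tested gene and stayed at or under 1.87 CPM. The part of these differences in the results below was not tested.

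Of the 10 members, Traf1 and Tnip1 rose in CPN cells, none fell, and 8 did not pass, where passing means an adjusted p at or under 0.05 over all tested genes. By edgeR's quasi-likelihood test 7.62% of all tested genes were higher in CPN and 6.39% were lower, 14.0% in all. With 2 calls among 10, the share among the members is close to that background. At an unadjusted edgeR p under 0.05, 3 members were higher and 1, Traf5, was lower, where 26.3% of all tested genes passed in either direction. With adjusted p, DESeq2 called 2 members higher and 1 lower, and 1955 of all 11092 tested genes. By limma-voom 2 members were higher and 0 lower, with 1674 of all 11092 tested genes called. The values of the groups did not overlap for 4 members, Traf1, Traf5, Tnfaip3 and Tnip1, where 32.6% of all tested genes did not overlap. The median log2 fold change of the members was 0.13, against -0.0079 over all tested genes. The number of members that rose was 0 without CPN 1 or without control 3, 1 without CPN 2 or without control 1, and 3 without control 2.

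**Figure D1:**
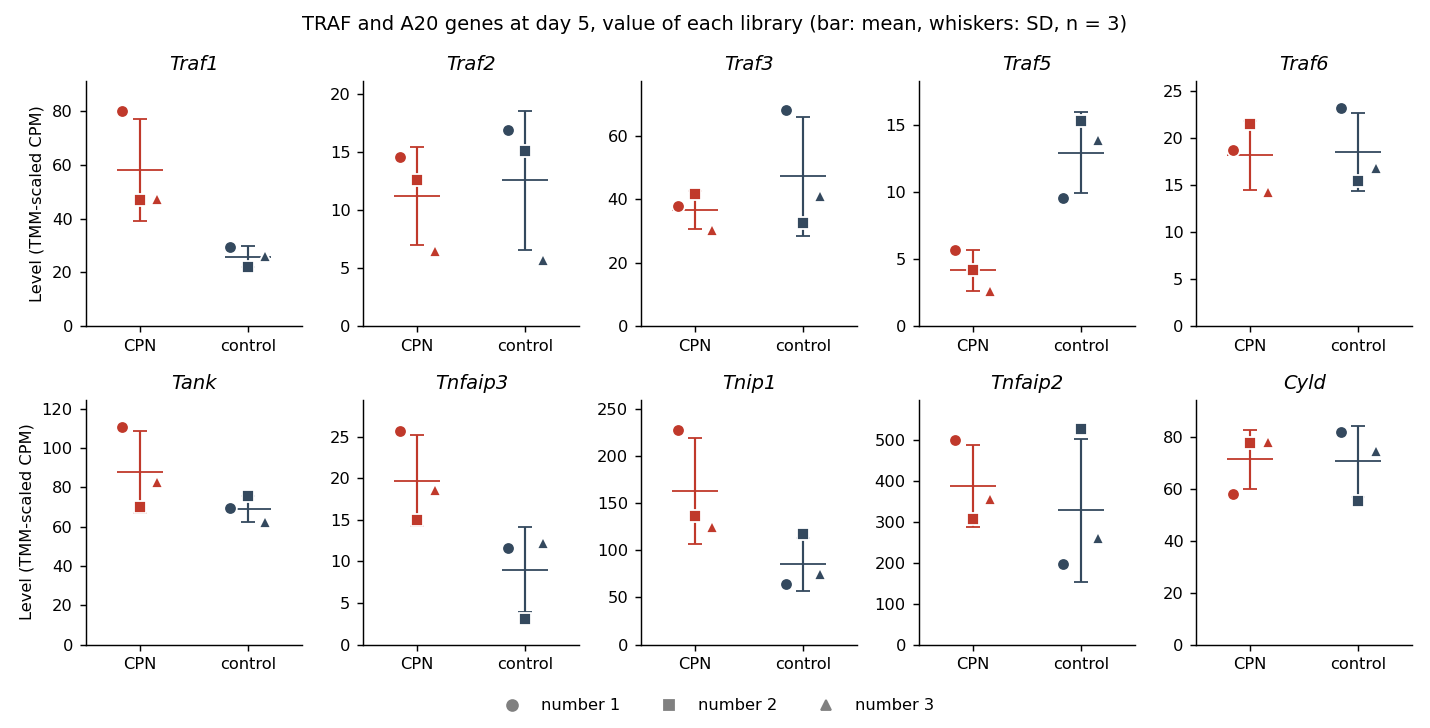
Level of each of the 10 genes in every library, in CPM scaled by TMM, with CPN on the left and control on the right of each panel. Points are libraries by label number, bars are means and whiskers SD (n = 3). The points of the groups stand apart for Traf1, Traf5, Tnfaip3 and Tnip1 and overlap in the other 6 panels.

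Traf1 encodes the one family member that lacks the RING domain; it joins TRAF2 in mixed complexes and is itself a target gene of NF-kB. It had 667, 358 and 381 counts in CPN 1 to 3, against 301, 182 and 222 in control 1 to 3. Scaled to library size by TMM, these were 80.04, 46.89 and 47.27 CPM in CPN, against 29.53, 21.8 and 25.95 CPM in control. All 3 CPN values lay above all 3 control values, and CPN 1 stood well above the other CPN libraries. The mean was 58.1 ± 19.0 CPM in CPN and 25.8 ± 3.87 CPM in control (SD, n = 3 each), a 2.25-fold rise with a 95% interval of 1.49 to 3.40 (log2 fold change 1.17 ± 0.27, SE, with an edgeR adjusted p of 0.0122). Without CPN 1 the log2 fold change was 0.87 and the adjusted p 0.0793, and without control 3 they were 1.18 and 0.0543. Traf1 lies on chromosome 2 (34941750 to 34961772, mm10, minus strand), where no other annotated gene overlaps it. Its upstream sequence is shown because Traf1 had the smallest p of the members. RefSeq places these 250 bases just before its start site, on the minus strand of GRCm38.p6 (chr2:34961773-34962022).
Traf1: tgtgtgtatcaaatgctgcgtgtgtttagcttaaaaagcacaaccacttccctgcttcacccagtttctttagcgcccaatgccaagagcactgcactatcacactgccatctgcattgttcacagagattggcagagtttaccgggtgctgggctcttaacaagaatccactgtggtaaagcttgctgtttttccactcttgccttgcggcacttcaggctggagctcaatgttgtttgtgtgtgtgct
It holds no match to the kappaB consensus, the sequence that NF-kB binds, to the AP-1 motif TGANTCA or to the interferon-stimulated response element (ISRE) on either strand, and no letters are therefore in capitals.

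Traf5, an adaptor of CD40 and related receptors and a close relative of TRAF2 and TRAF3, was the member with the lowest CPN values relative to control. It had 47, 32 and 21 counts in CPN 1 to 3, against 97, 128 and 119 in control 1 to 3, which is 5.64, 4.19 and 2.61 CPM in CPN, against 9.52, 15.3 and 13.9 CPM in control. The groups did not overlap. The mean was 4.15 ± 1.52 CPM in CPN and 12.9 ± 3.03 CPM in control (SD, n = 3 each), and the log2 fold change of -1.63 ± 0.52 (SE) narrowly missed the threshold with edgeR adjusted p = 0.0550. It passed by DESeq2 (adjusted p = 0.0199) and with scaling by library totals alone (edgeR adjusted p = 0.0404). Over the fits with 1 library left out its log2 fold change lay between -1.92 and -1.39 and its adjusted p between 0.0713 and 0.176. With a mean under 50 counts in CPN, independent counts would give Traf5 a coefficient of variation of 17.3% there, against a measured 36.6%. That 17.3% is a lower bound, since 41.16% of the 707 low genes were at 0 in CPN 2 and 37.77% in CPN 3.

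The other TRAF genes overlapped between groups. Traf6, the RANK adaptor, had 18.7, 21.5 and 14.3 CPM in CPN, against 23.3, 15.4 and 16.8 CPM in control. Its log2 fold change was -0.03 with a 95% interval of -0.76 to 0.70 (edgeR adjusted p = 0.973), so that changes of up to about 1.69-fold downward and 1.62-fold upward remain inside the interval. Traf3 had 37.9, 41.8 and 30.2 CPM in CPN, against 68.3, 32.5 and 41.0 CPM in control. Control 1 alone stood above all other libraries: the log2 fold change of Traf3 was -0.37 ± 0.29 (SE, edgeR adjusted p = 0.480), with a 95% interval that runs, as a fold, from 0.5001 to 1.198, and it was -0.01 without control 1. Traf2, the adaptor that brings inhibitor-of-apoptosis ligases to TNF receptors, had 14.5, 12.6 and 6.45 CPM in CPN, against 16.9, 15.1 and 5.73 CPM in control. In each group the library numbered 3 was the low one, and the interval of the log2 fold change ran from -1.25 to 0.92 (edgeR adjusted p = 0.880), the widest of the 5 TRAF genes after Traf5. Tank, an adaptor of the kinases TBK1 and IKK-epsilon that also restrains TRAF6 in mouse macrophages, had 111.0, 70.1 and 82.8 CPM in CPN, against 69.5, 75.5 and 62.3 CPM in control, with CPN 2 inside the control range. Its log2 fold change was 0.35 with an interval of -0.12 to 0.82 (edgeR adjusted p = 0.353).

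**Figure D2:**
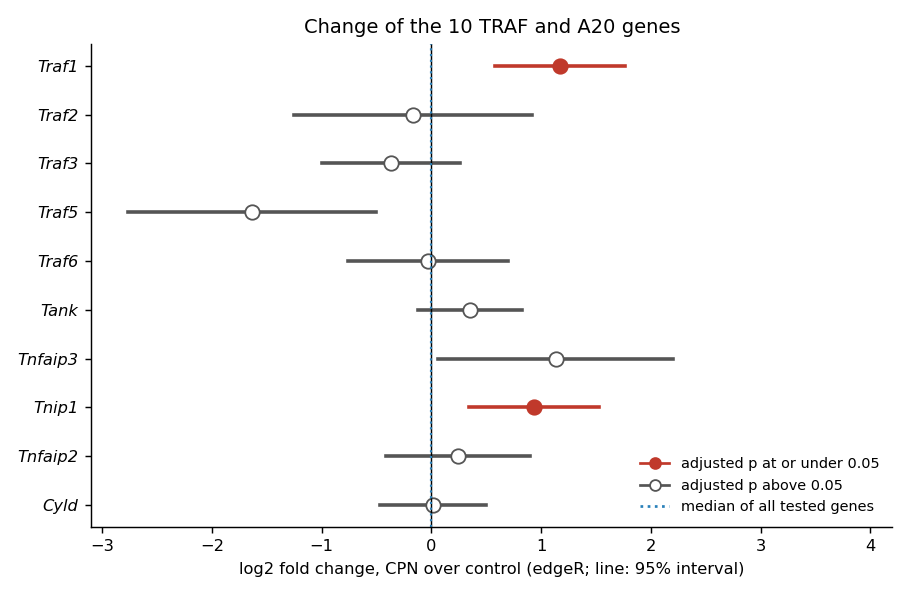
Log2 fold change of CPN over control for each of the 10 genes (edgeR, points) with its 95% interval (lines); filled red points have an adjusted p at or under 0.05 and the dotted line is the median of all tested genes. Only the intervals of Traf1, Traf5, Tnfaip3 and Tnip1 leave out 0, and of these 4 Traf1 and Tnip1 passed after adjustment over all genes.

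Ratios of counts within a library do not depend on how libraries are scaled, and they set the TRAF genes against each other. There were 14.2, 11.2 and 18.1 Traf1 counts per Traf5 count in CPN 1 to 3, against 3.10, 1.42 and 1.87 in control 1 to 3. Every CPN ratio was thus above every control ratio, with a mean log2 difference of 2.82 (two-sided exact permutation p = 0.10, the smallest that 3 against 3 samples allow). This separation follows from the levels above, where Traf1 was higher and Traf5 lower in every CPN library, and adds no separate check. The ratio of Traf1 to Traf3 was 2.11, 1.12 and 1.57 in CPN, against 0.432, 0.672 and 0.632 in control, again without overlap (exact permutation p = 0.10). The ratio of Traf1 to its partner Traf2 was 5.51, 3.73 and 7.33 in CPN, against 1.75, 1.44 and 4.53 in control, where control 3 lay inside the CPN range (exact permutation p = 0.20). The ratio of Traf6 to Traf3 overlapped between groups (exact permutation p = 0.20). In all 6 ratios were computed, chosen after the values of the genes were seen, and with the smallest possible p at 0.10 none can pass.

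**Figure D3:**
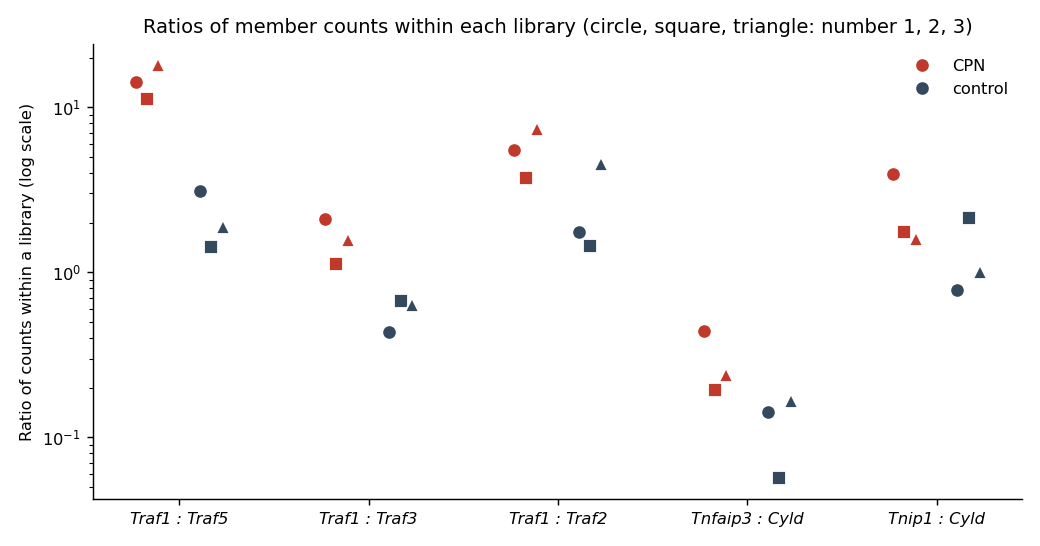
Ratio of the counts of one gene to those of another within each library, on a log axis, with CPN in red to the left of control in dark blue; symbols mark the label number. The CPN and control points are apart for Traf1 to Traf5, Traf1 to Traf3 and Tnfaip3 to Cyld, and overlap for Traf1 to Traf2 and Tnip1 to Cyld.

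Among the regulators, Tnip1 rose and Tnfaip3 had higher values that did not pass. Tnip1 had 1898, 1042 and 1004 counts in CPN 1 to 3, against 654, 977 and 637 in control 1 to 3. In CPM these were 227.8, 136.5 and 124.6 in CPN, against 64.2, 117.0 and 74.5 in control. The lowest CPN library exceeded the highest control library, control 2, by little, while CPN 1 lay far above the rest. The mean was 162.9 ± 56.5 CPM in CPN and 85.2 ± 28.0 CPM in control (SD, n = 3 each), a 1.91-fold rise with a 95% interval of 1.27 to 2.89 (log2 fold change 0.94 ± 0.27, SE, with an edgeR adjusted p of 0.0382). The call ended without CPN 1 (log2 fold change 0.62, adjusted p = 0.190), CPN 2 (1.06, 0.0707), control 1 (0.77, 0.141) or control 3 (0.85, 0.150) and with scaling by library totals alone (0.84, 0.0638), and it was strongest without control 2 (1.25, 0.00191).

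Tnfaip3, which encodes A20, had 214, 114 and 150 counts in CPN 1 to 3, against 118, 26 and 105 in control 1 to 3. That is 25.7, 14.9 and 18.6 CPM in CPN, against 11.6, 3.11 and 12.3 CPM in control. All CPN values were above all control values, but CPN 2 lay close to control 1 and control 3, and control 2 was far below both. The mean was 19.7 ± 5.46 CPM in CPN and 8.99 ± 5.10 CPM in control (SD, n = 3 each), and the log2 fold change of 1.13 had a 95% interval of 0.06 to 2.20 (unadjusted p = 0.0400, edgeR adjusted p = 0.162). Without control 2 it was 0.74. The control values varied by 56.7%. If every count were an independent draw, counting would give 10.98%, a lower bound given the many low genes at 0. Tnfaip3 did not pass under any of 16 alternatives (adjusted p between 0.0938 and 0.450).

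Cyld, a deubiquitinase that limits RANK signalling through TRAF6 in mouse osteoclast precursors, had 58.1, 77.5 and 78.0 CPM in CPN, against 81.7, 55.1 and 74.6 CPM in control. The ranges covered each other, and the log2 fold change of 0.01 had the 95% interval -0.47 to 0.50 (edgeR adjusted p = 0.980), which leaves room for changes of up to about 1.41-fold upward. Tnfaip2 had 499.3, 306.7 and 356.2 CPM in CPN, against 197.8, 526.1 and 259.8 CPM in control. Control 2 was the highest of all 6 libraries and the other controls were the lowest, and the log2 fold change was 0.24 (interval -0.42 to 0.90, edgeR adjusted p = 0.685). Without control 2 Tnfaip2 was higher in CPN, with a log2 fold change of 0.77 (adjusted p = 0.0157). Set against Cyld within each library, Tnfaip3 had 0.442, 0.193 and 0.238 counts per Cyld count in CPN, against 0.142, 0.0565 and 0.165 in control, without overlap (exact permutation p = 0.10, the smallest possible), and Tnip1 had 3.92, 1.76 and 1.60 in CPN, against 0.785, 2.12 and 0.998 in control, with overlap (exact permutation p = 0.30).

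The members spread in library-specific ways. CPN 1 was the highest CPN library for 7 of the 10 members, while CPN 3 was the lowest for 5. Among the controls, control 1 was highest for 5 members and control 2 for 4, and control 2 was also lowest for 5. Control 2 stood out in opposite directions for different regulators, since on the log2 scale it lay 1.24 below the mean of its group for Tnfaip3 and 0.81 and 0.51 above it for Tnfaip2 and Tnip1. CPN 1 and control 3 are also the libraries with the fewest low genes at 0. The ribosomal RNA precursor gene Rn45s took 9.04% of counts in CPN 1 and 11.24% in control 3, against 12.96% to 16.55% in the other libraries. The part of these properties in the members' calls was not tested.

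**Figure D4:**
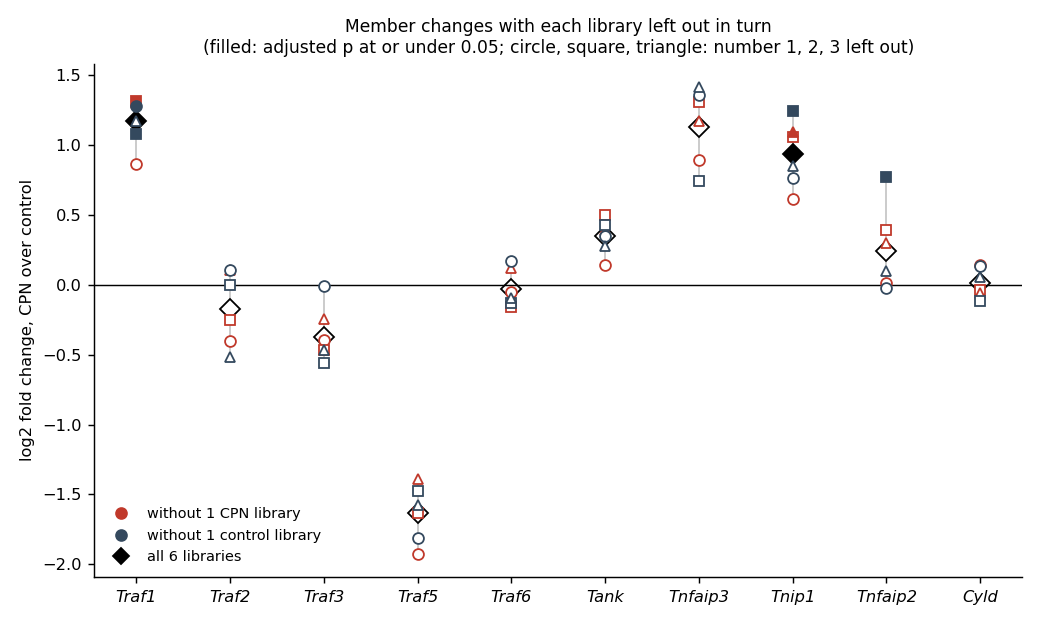
Log2 fold change of CPN over control (edgeR) for each gene with all 6 libraries (diamonds) and with 1 library left out in turn (red: a CPN library, dark blue: a control library; symbols give its number); filled symbols have an adjusted p at or under 0.05. Traf1, Traf3, Traf5, Tank, Tnfaip3 and Tnip1 kept their sides of 0 in all 6 such fits, and Tnip1 passed in 2 of the 6.

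In GENCODE (mm10) Tnip1 lies on chromosome 11 (54910785 to 54962917, minus strand), Tnfaip3 on chromosome 10 (19000910 to 19015657, minus strand) and Traf5 on chromosome 1 (191997205 to 192092559, minus strand), and no member has its 3′ end, where these reads fall, covered by another measured gene. The upstream sequences of the members differed in what they hold. RefSeq gives 14 start sites for the 10 genes, and the 250 bases before each were searched on both strands for the kappaB consensus, for TGANTCA and for the ISRE. The kappaB consensus matched upstream of 6 of 10 members, against 8.23% of 27025 genes. It matched in 9 of their 14 windows, of which those of Tank overlap in pairs, against 7.25% of all 32851 windows of that length. TGANTCA was found for 2 members, Tank and Tnfaip3 (6.75% of all windows), and the ISRE for 0 (2.98% of all windows). The 6 genes with a kappaB match were Tnip1, Tnfaip3, Tnfaip2, Cyld, Traf3 and Tank, of which Tnip1 alone passed the test. The whole window of Tnip1 is shown because it is the member that both rose and holds the match (chr11:54962941-54963190, minus strand, GRCm38.p6), with the motif in capitals.
Tnip1: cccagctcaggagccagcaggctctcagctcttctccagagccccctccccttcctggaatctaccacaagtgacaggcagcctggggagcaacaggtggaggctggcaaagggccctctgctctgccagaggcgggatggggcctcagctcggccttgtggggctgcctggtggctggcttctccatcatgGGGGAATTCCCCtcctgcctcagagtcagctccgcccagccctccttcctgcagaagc
In Tnip1 the capitals join several overlapping matches read on both strands, between 58 and 47 bases before the start site. The matches of the other 5 genes are shown with up to 10 bases on either side, cut at the start site, to compare the motif itself. They lie at chr10:19015411-19015432 and chr10:19015516-19015545 (minus strand) for Tnfaip3, chr12:111442627-111442656 for Tnfaip2, chr8:88696863-88696892 for Cyld, chr12:111166350-111166369 for Traf3, and chr2:61578537-61578556 and chr2:61593015-61593044 for Tank (plus strand). All are given 5′ to 3′ on the strand of the gene.
Tnfaip3, near the start: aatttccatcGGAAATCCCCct
Tnfaip3, farther upstream: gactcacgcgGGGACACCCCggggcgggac
Tnfaip2: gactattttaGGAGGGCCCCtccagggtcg
Cyld: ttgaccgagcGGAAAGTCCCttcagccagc
Traf3: ggcggcccgcGGGGATTTCC
Tank, before its upstream start sites: atttctcagtGGAAGTCCCC
Tank, before its downstream start sites: ctttgtgggcGGGGCTTTCCtgcagaggcg
The matches of Traf3 and of the most upstream start site of Tank lay directly before it, and the nearer one of Tnfaip3 ended 3 bases before its start site. A match describes letters in these windows only, and the windows of Traf1, Traf2, Traf5 and Traf6 held none of the 3 motifs. GENCODE starts Tnfaip3, Tnfaip2 and the later sites of Tank upstream of the RefSeq sites used here, so these windows lie partly or wholly inside its gene models.

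Around the members, 72 of 82 genes of the same pathway could be tested, of which 12 rose and 4 fell in CPN, or 22.2% against 14.0% of all tested genes. Their median log2 fold change was 0.27. The lists were chosen with earlier results of these data known, so these gene counts are a description. The number that fell was 0 without CPN 1, without CPN 2 or without control 3, 1 without control 1, 2 without CPN 3 and 5 without control 2, while the number that rose lay between 8 and 15 in these fits. Of 16 receptors that signal through TRAF proteins, 7 were tested, 3 rose, 1 fell and 3 did not pass by edgeR (DESeq2 called 4 higher), and of the 9 not tested 3 were at 0 in every library. Cd40, a receptor that costimulates macrophages, had 46.9, 38.4 and 35.7 CPM in CPN, against 0.0981, 6.11 and 0.584 CPM in control (log2 fold change 4.18, with an edgeR adjusted p of 0.00435). Control 2 held 51 of its control counts, against 1 in control 1 and 5 in control 3, and without control 2 the log2 fold change was 6.91. The costimulatory receptor gene Tnfrsf9 had 11.9, 7.20 and 13.9 CPM in CPN, against 0.0981, 1.56 and 0.701 CPM in control, and rose by 3.81 on the log2 scale (adjusted p = 0.00995, edgeR). It overlaps Camta1, which has more counts, so shared reads cannot be assigned, and its call ended without CPN 1 (adjusted p = 0.0551) or CPN 3 (0.0543), while without control 2 its log2 fold change was 4.79. Tnfrsf1b, the second TNF receptor, whose tail binds TRAF2 and TRAF1, rose to 73.3 ± 39.5 CPM in CPN, against 29.0 ± 7.78 CPM in control (SD, n = 3 each, edgeR adjusted p = 0.0203), with its call ended without CPN 1 (0.128), control 1 (0.0801) or control 3 (0.0836). Without CPN 3 its log2 fold change was 1.60 and without CPN 1 it was 0.81. Tnfrsf11a, which encodes RANK, fell to 45.3 ± 11.5 CPM in CPN, against 84.4 ± 13.4 CPM in control (edgeR adjusted p = 0.0231), a call that ended without CPN 1, CPN 2, control 1 or control 3 (adjusted p up to 0.115).

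**Figure D5:**
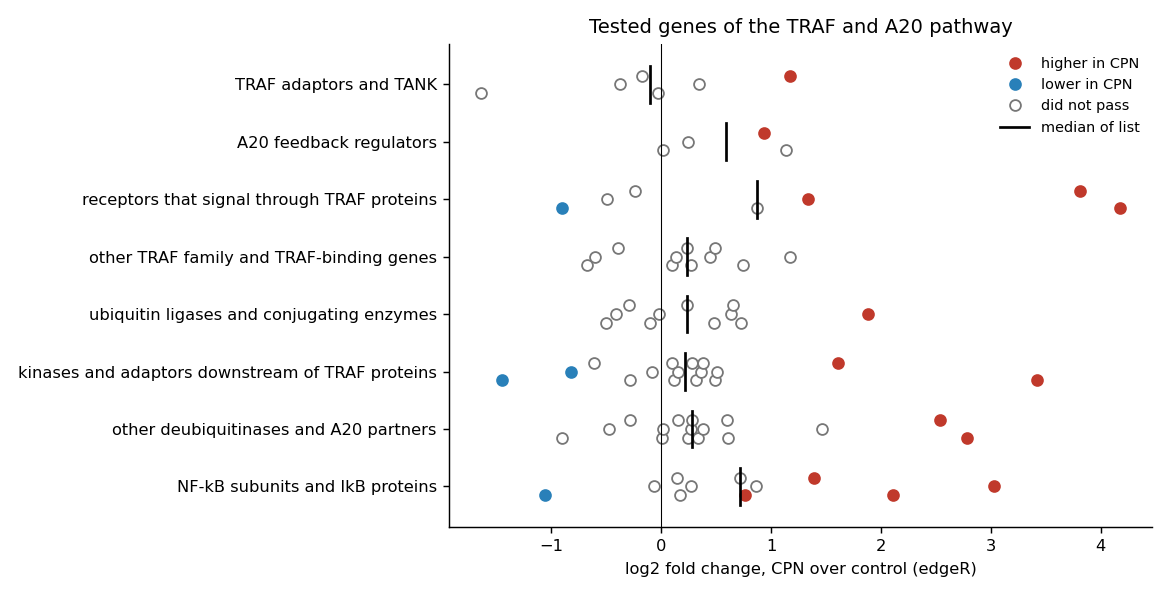
Log2 fold change of CPN over control (edgeR) of each tested gene, by list: the 10 members in the first 2 rows and the pathway genes in the other 6. Red points were higher and blue points lower at an adjusted p of 0.05, open points did not pass, and vertical bars are list medians; the points farthest to the right are the receptor genes Cd40 and Tnfrsf9.

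The other TRAF family and TRAF-binding genes gave no call. Of 11 tested, among them Traf4 and Traf7, 0 passed by edgeR, by DESeq2 or by limma-voom, and 0 had an unadjusted edgeR p under 0.05 (median log2 fold change 0.23). Traf4 averaged 5.73 ± 1.99 CPM in the CPN libraries and 3.42 ± 2.62 CPM in the control libraries (SD, n = 3 each, edgeR adjusted p = 0.624), and Traf7 had 49.2, 48.6 and 56.1 CPM in CPN, against 66.9, 76.4 and 58.4 CPM in control (edgeR adjusted p = 0.265). Of 11 tested ubiquitin ligases and conjugating enzymes 1 rose and 0 fell by edgeR, DESeq2 and limma-voom alike, with 2 higher and 1 lower at an unadjusted edgeR p under 0.05 (median log2 fold change 0.23). The riser was Peli1, a Pellino ligase of Toll-like receptor signalling, at 288.5, 174.3 and 136.7 CPM in CPN, against 54.2, 49.8 and 58.3 CPM in control (log2 fold change 1.88 ± 0.26, SE, with an edgeR adjusted p of 0.000366), and it passed in all 6 fits with 1 library left out.

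Of 16 kinases and adaptors downstream of TRAF proteins, all tested, 2 rose and 2 fell by edgeR (median log2 fold change 0.22), while DESeq2 and limma-voom each called 3 higher and 2 lower. Ikbke, which encodes the TANK-binding kinase IKK-epsilon, had 51.4, 28.4 and 30.9 CPM in CPN, against 1.67, 2.16 and 6.55 CPM in control (log2 fold change 3.42, with an edgeR adjusted p of 0.000711, and 4.27 without control 3). Ripk2, the kinase of NOD receptors, rose to 20.3 ± 2.19 CPM in CPN, against 6.65 ± 1.30 CPM in control (edgeR adjusted p = 0.0144), a call that ended without CPN 1 (0.0622) or control 3 (0.0636). Map3k14, which encodes NIK, the kinase that TRAF3 keeps low, had 7.80, 5.50 and 6.70 CPM in CPN, against 17.1, 18.3 and 19.4 CPM in control (log2 fold change -1.45, with an edgeR adjusted p of 0.0266). Its groups were well apart, but of the 6 fits with 1 library left out it passed in 1, without control 2 (adjusted p = 0.0424; up to 0.110 in the others). Irak1, a kinase upstream of TRAF6, fell to 127.8 ± 21.4 CPM in CPN, against 225.3 ± 39.6 CPM in control (edgeR adjusted p = 0.0140), and did not pass without CPN 1 (0.0559), CPN 2 (0.0855) or control 3 (0.0668).

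Of 16 other deubiquitinases and A20 partners, all tested, 2 rose and 0 fell by edgeR (median log2 fold change 0.28). At an unadjusted p under 0.05, 3 were higher and 2 were lower, while DESeq2 called 3 higher, limma-voom called 2 higher, and both called 0 lower. Usp18, which removes the ubiquitin-like modifier ISG15, had 20.9, 45.7 and 34.0 CPM in CPN, against 4.81, 8.15 and 1.64 CPM in control (log2 fold change 2.78, with an edgeR adjusted p of 0.00306, and 3.38 without control 2). Otub2, an OTU-family deubiquitinase like A20, had 28.3, 13.8 and 10.7 CPM in CPN, against 0.883, 6.95 and 1.29 CPM in control (log2 fold change 2.54, with an edgeR adjusted p of 0.0357), and of the fits with 1 library left out it passed in 1, without control 2, where the log2 fold change was 4.02. It was 2.01 without CPN 1, where the adjusted p was 0.197, the highest of these fits.

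Of 11 NF-kB subunits and IkB proteins, all tested, 4 rose and 1 fell by edgeR (median log2 fold change 0.72), and these 5 encode IkB-type proteins. DESeq2 and limma-voom each called 5 higher and 1 lower, and the gene they added was Relb, an NF-kB subunit (adjusted p = 0.0264 by DESeq2 and 0.0217 by limma-voom, against 0.0605 by edgeR). Nfkbiz, an inducible nuclear IkB protein, had 70.2, 90.9 and 69.9 CPM in CPN, against 8.54, 9.58 and 10.2 CPM in control (log2 fold change 3.03 ± 0.25, SE, with an edgeR adjusted p of 9.83e-06). Nfkbib, which holds NF-kB in the cytoplasm, had 580.1, 384.1 and 197.4 CPM in CPN, against 70.5, 106.4 and 92.2 CPM in control (log2 fold change 2.11, with an edgeR adjusted p of 0.000737). It overlaps Sirt2, but no measured gene covers its 3′ end, where these reads fall. Any reads from the shared stretch could belong to either gene. Bcl3, a nuclear coactivator of NF-kB, rose to 44.0 ± 4.76 CPM in CPN, against 16.7 ± 3.97 CPM in control (edgeR adjusted p = 0.00478). Nfkbia, the classical feedback inhibitor, rose to 1073 ± 149.6 CPM in CPN, against 631.3 ± 55.1 CPM in control (edgeR adjusted p = 0.00556). Nfkbid, another nuclear IkB protein, which was named after its values were seen, fell to 14.7 ± 2.44 CPM in CPN, against 30.6 ± 4.56 CPM in control (edgeR adjusted p = 0.0333), a call that held without control 2 (adjusted p = 0.0215) and ended without any of the other 5 libraries (up to 0.136).

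Likeness of pattern was measured as the root mean square distance between centred log2 CPM profiles over the 6 libraries, which share their depth and their groups. The 5 genes nearest to Tnfaip3 were Lins, Eftud1, Crtc2, Zfp574 and Tbc1d19, at 0.197 to 0.252 log2 units, against a median of 1.03 over all other tested genes. None of the 5 passed by edgeR (adjusted p between 0.189 and 0.568), and each, like Tnfaip3, had its lowest value in control 2. The 5 genes nearest to Traf1 were Atxn1, Tmem246, Plaur, Dab2 and Sec61g, at 0.140 to 0.161 log2 units, against a median of 0.772, and each had its highest value in CPN 1. Of these 4 rose, with adjusted p by edgeR of 0.00842 for Atxn1, 0.0284 for Plaur, 0.00178 for Dab2 and 0.00389 for Sec61g, and Tmem246 did not pass (0.390). Both sets of 5 genes were picked from the same values that the test uses. Their calls and shared extremes follow in part from that choice and add no separate check. Atxn1 overlaps Gmpr, and its call ended without CPN 1 (0.0566) or control 3 (0.0501), as did that of Plaur without CPN 1 (0.150), CPN 2 (0.0618) or control 3 (0.0946). Among the members themselves, Tnip1 and Tank were the nearest to Traf1, at 0.399 and 0.451 log2 units, and Traf5 was the farthest, at 1.43.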

How the data were processed

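Per the labels' protocols, Trizol RNA went into a Lexogen QuantSeq kit, whose reads mark the 3′ ends of transcripts. Each sample has 1 deposited table of raw counts by gene symbol. Per the submitters' processing notes the authors used Bowtie2, bedtools and the build mm10. The sources used here give no versions, annotation, strand setting or treatment of multiply aligned or duplicate reads, so reads of overlapping genes cannot be told apart. Totals ran from 7957228 to 9713938 counts.

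Counts were analysed in R 4.3.3 with edgeR 4.0.16: filterByExpr (minimum count 10, minimum total 15), TMM scaling, and the quasi-likelihood test of CPN against control, Benjamini-Hochberg adjusted across all 11092 tested genes with a threshold of 0.05. CPM values use TMM-scaled totals, SE is the log2 fold change over the square root of F, and intervals are 95%. Log2 profiles for likeness used a prior count of 2. The code was tested on simulated counts. Members and lists were chosen with earlier results of these data known, so list counts are descriptions. Named are all members, up to 4 passing genes of smallest p per pathway list, and the 5 genes nearest in profile to Tnfaip3 and to Traf1. Coordinates are from GENCODE M21 (GRCm38) and upstream sequences from RefSeq (GRCm38.p6), matched by symbol for 10 of 10 members. Alternatives were DESeq2 1.42.0, limma-voom (limma 3.58.1), other scalings and filters, a test against a fold of 1.5, a replicate block, removal of the ribosomal RNA precursor gene Rn45s, and left-out libraries.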

Additional observations from a re-analysis of the deposited data

How the results depend on the processing

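With scaling by library totals alone the median over all genes was -0.13 (log2), against -0.0079, and 43.02% of calls were higher, against 54.38%; 1 member was higher (Traf1) and 1 lower (Traf5). DESeq2 also called 1 member lower. Against a fold of 1.5, 0 members were higher, 0 pathway genes were lower and 697 of all genes passed, against 1554. Without control 3 and CPN 1 together, the pair with fewest zeros, there were 0 members higher, 5 pathway genes higher, 0 pathway genes lower and 446 genes in all, with a median of the members of -0.02. Leaving out 1 library at a time gave 0 to 3 members higher, 0 to 5 pathway genes lower and 884 to 1954 genes in all. When a library is left out, fewer samples are tested; which property of CPN 1 or control 3 matters was not tested. Same-numbered libraries did not deviate together (correlations across genes of -0.0508, 0.0195 and 0.0276), so the label numbers pair nothing that can be shown. With the replicate block 1 member was higher, 2 pathway genes were lower and 1326 genes passed; the named genes that lost their call were Tnip1 (edgeR adjusted p = 0.0681), Tnfrsf1b (0.0504), Map3k14 (0.0523) and Nfkbid (0.0655). Of 160 values of single members under alternatives 145 kept their side of the threshold, 12 lost a call and 3 gained one. For the 26 other named genes these were 352, 63 and 1 of 416. Among the members only Traf1 and Tnip1 had a call to lose. Of the 16 alternatives Traf1 passed in 12 and Tnip1 in 8. The lowest member count was 21, that of Traf5 in CPN 3, and the part of depth in its result was not tested.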

Other observations

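The 72 tested pathway genes came from lists chosen with earlier results of these data known. Of them 32 had groups that did not overlap, or 44.4%, against 32.6% of all tested genes. Of these 16 did not pass by edgeR, 10 with higher and 6 with lower values in CPN. Those described here were chosen after their values were seen. Otulin, the deubiquitinase of linear ubiquitin chains, had 84.8, 76.5 and 68.6 CPM in CPN, against 54.6, 48.3 and 48.7 CPM in control (edgeR adjusted p = 0.0682). Tnip2, a relative of Tnip1, had 25.9, 27.9 and 25.9 CPM in CPN, against 17.8, 16.2 and 18.4 CPM in control (edgeR adjusted p = 0.199). Relb, the subunit of the alternative NF-kB branch, had 81.8, 88.8 and 74.2 CPM in CPN, against 25.3, 59.9 and 49.3 CPM in control (edgeR adjusted p = 0.0605), beside the lower Map3k14 of the same branch. Birc3, an inhibitor-of-apoptosis ligase that TRAF2 recruits, had 37.9, 36.2 and 41.8 CPM in CPN, against 27.4, 21.6 and 25.8 CPM in control (edgeR adjusted p = 0.123). The receptor gene Ltbr had 61.3, 107.3 and 49.3 CPM in CPN, against 38.1, 47.9 and 33.3 CPM in control (edgeR adjusted p = 0.0660). The 6 with lower values were Xiap, Usp21, Otud5, Irak4, Ube2v1 and Traf7. Xiap, an inhibitor-of-apoptosis ligase like Birc3, had 162.6, 133.1 and 172.2 CPM in CPN, against 250.8, 224.4 and 185.5 CPM in control (edgeR adjusted p = 0.0950). Usp21, a deubiquitinase, had 18.8, 11.9 and 25.7 CPM in CPN, against 34.4, 27.1 and 43.7 CPM in control (edgeR adjusted p = 0.0983). The other 4 had edgeR adjusted p between 0.156 and 0.265.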
